A study of Homo sapiens with 4 samples.

Results

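The response of MDA-MB231 breast cancer cells to knockdown of PIAS1 in stem cell medium (SCM) was read as the ratio of 1 array of cells with PIAS1 shRNA to 1 array of cells with a control shRNA. All 19070 probe sets of the 22277 on the array that are listed with exactly 1 gene were used, which gave 11963 genes, and the genes were described by pathway and family. Both cell lines had been kept for 30 h in SCM, a serum-free DMEM/F-12 medium with bovine serum albumin, EGF, bFGF and insulin. The other 2 of the 4 arrays of the study were from the same control shRNA and PIAS1 shRNA lines in DMEM with 10% FBS, and they are given beside the SCM values as a second pair that shares no array with the first. MDA-MB231 is a human breast cancer line with mesenchymal features and no estrogen receptor protein. The lines were stable lines made with lentiviral vectors and puromycin selection, and carried a scramble hairpin or 1 hairpin against PIAS1 (PIAS1 shRNA2 in the study's design), so an effect of PIAS1 and one of that hairpin or that line cannot be told apart. There was 1 array per condition, so no ratio has a replicate check and none has a p-value, and all comparisons below are of these arrays.

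PIAS1 is a SUMO E3 ligase. It binds the NF-kappaB subunit RELA and limits the transcription of a subset of NF-kappaB target genes, and it can recruit silencing factors to promoters. SCM selects for cells that survive and divide without serum, and is used to enrich tumor-initiating cells.

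PIAS1 itself was lower with the PIAS1 shRNA on each of its 3 probe sets in SCM. On the brightest, the control shRNA array read 1814 and the PIAS1 shRNA array 671, or 37.0% of control, and in DMEM 1383 and 512. On the others it was 31.5% and 77.9% of control in SCM. The related ligase genes gave log2 ratios of -0.80 for PIAS2, 0.60 for PIAS3 and 0.19 for PIAS4, all within 2-fold.

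The MAS5 signal is a brightness on a linear scale. Signals up to 182, the 75th percentile of 93 probe sets for genes that belong to other tissues, on the array where it was highest, were taken as background and raised to that floor, and a ratio whose dimmer signal was under the floor is a bound. The mean without the lowest and highest 2% of probe sets was 2501 on each array and the median was 605 on both SCM arrays. The line's own mesenchymal and basal genes were bright, with 13 of 14 above the floor with control shRNA and 14 with PIAS1 shRNA, and summed signals of 371294 and 346499. Of the 15 luminal markers 12 were above the floor on each SCM array, with KRT18 at 16934 and 16773. The luminal markers CDH1, FOXA1 and PGR were under the floor on both SCM arrays, while ESR1 read 706 and 357, a log2 ratio of -0.99. The study reports ESR1 as induced by the knockdown, so the probe set used here reads the other way. Markers of lymphocytes, macrophages and endothelium were mostly dim: 5 of 11, 2 of 8 and 2 of 8 were above the floor with control shRNA and 4, 2 and 2 with PIAS1 shRNA, and PTPRC, LYZ and VWF were under it on both arrays.

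Knockdown in SCM went with 204 genes that were at least 2-fold higher, which is 1.71% of all genes, and 141 were at least 2-fold lower, which is 1.18%. Counts within the lists below are to be read against these shares. For 45 of the higher and 44 of the lower genes the ratio is a bound. At 4-fold the counts were 20 and 3. Most genes had similar signals on both arrays, with 88.8% within 1.5-fold. In that share the 2639 genes under the floor on both are counted as equal, and the 1020 under it on 1 array by their bound. The log2 ratio of the 8304 genes above the floor on both arrays had a standard deviation of 0.41. A measure of the spread between probe sets comes from the 2830 genes with 2 probe sets above the floor on both SCM arrays. The standard deviation of the difference between their log2 ratios, divided by the square root of 2, was 0.28. Of 58 genes that were at least 2-fold on the brighter of these probe sets, 25 were at least 2-fold the same way on the other and 49 had the same sign.

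**Figure D1:**
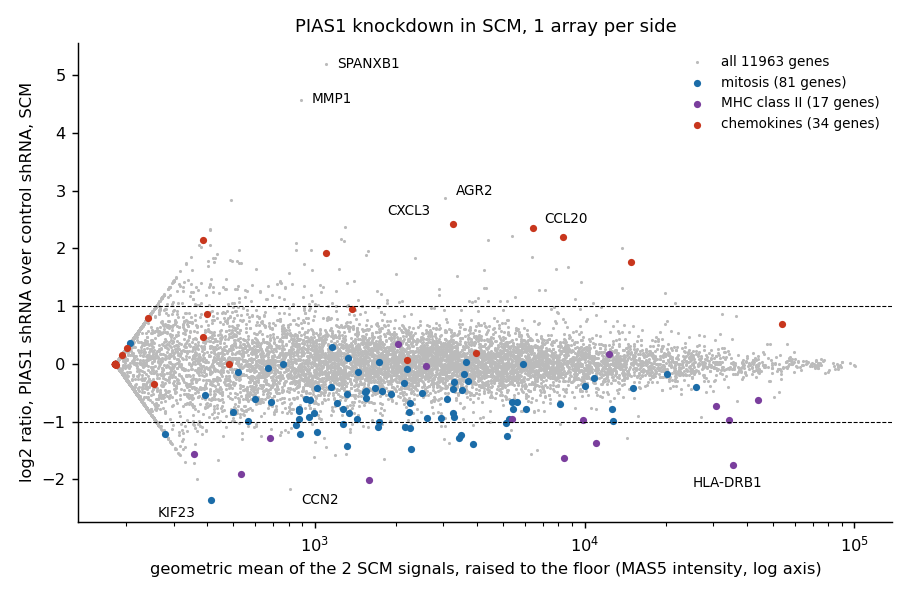
Each point is 1 of 11963 genes, with the geometric mean of its 2 SCM signals on the x axis (MAS5 intensity, log axis, signals under 182 raised to 182) and its log2 ratio of PIAS1 shRNA over control shRNA on the y axis, and dashed lines mark 2-fold. The 81 mitosis genes (blue) lie mostly below 0, the class II genes (purple) reach -2.01, and 6 genes of the chemokine list (red), 1 of them the receptor CXCR4, lie above 1; the slanted edges at the left are ratios against the floor.

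The genes with the highest ratios were of several kinds. SPANXB1, a cancer-testis gene of the X chromosome, read 78.0 and 6644 in SCM and 226 and 4242 in DMEM, at least 36.4-fold and 18.7-fold higher. Its neighbour LDOC1, which encodes a leucine zipper protein, read 20.7 and 1303 in SCM and 108 and 969 in DMEM. The interstitial collagenase gene MMP1 read 110.3 and 4348 in SCM and 4.19 and 361 in DMEM. These 3 genes were at background with control shRNA and well above it with PIAS1 shRNA in SCM. AGR2, which helps fold secreted mucins in epithelia, read 1123 and 8198 in SCM and 341 and 984 in DMEM, and was thus 7.30-fold higher from a control signal that was already above the median. The tetraspanin gene TSPAN8 read 568 and 2929 in SCM and 537 and 2099.9 in DMEM, and the mesenchymal cadherin gene CDH11 read 2082 and 9255 and 1854 and 6438. PAEP, which encodes the lipocalin glycodelin, read 27.8 and 924 in SCM and stayed under the floor on both DMEM arrays. The orphan nuclear receptor gene NR2F1 was 4.50-fold higher, the ubiquitin ligase gene RNF128 at least 5.01-fold and PID1, a regulator of insulin signaling, 4.37-fold. The other 5 of the 15 highest genes were the chemokine genes CXCL3, CCL20, CXCL2 and CXCL5 and the prostaglandin synthase gene PTGS2, described with their pathways.

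The 15 genes with the lowest ratios held 4 class II antigen-presentation genes and 1 mitotic motor gene, KIF23. CCN2, which encodes the matrix protein CTGF and is a standard target of YAP, read 1725 and 383 in SCM, 22.2% of control, and 5841 and 9172 in DMEM, where the PIAS1 shRNA signal was the higher of both. RARRES2, which encodes the chemoattractant chemerin, read 3189 and 1021 in SCM and 4167 and 1625 in DMEM, lower in both. WT1, a zinc finger transcription factor, was lower on both of its probe sets in SCM, at 33.7% and 19.6% of control. The neuropeptide gene NMU read 1736 and 569 and the mitochondrial glutamate carrier gene SLC25A22 2055 and 683. APOBEC3F, a cytidine deaminase, read 644 and 196, TUBA4B 780.4 and 246, and CCDC85C, OSGIN1 and HIRIP3 had control signals of 729.9, 596 and 548 and PIAS1 shRNA signals under the floor, so these 5 rest on dim signals.

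Genes of mitosis were lower as a group. Dividing cells switch these genes on together in G2, through the factors MYBL2 and FOXM1. In resting cells a repressor complex that binds the CHR element of their promoters keeps them off. The summed level of these genes thus follows how many cells are dividing. Of 84 listed genes 81 were measured, and 16 were at least 2-fold lower and 0 higher, 19.8% against 1.18% of all genes. The deposited signal was lower with PIAS1 shRNA for 76 of the 81, and the median log2 ratio of the list was -0.67 against 0 for all genes. The median signal of the list was 2280 with control shRNA and 1442 with PIAS1 shRNA in SCM, and 7035 and 6263 in DMEM, where the median log2 ratio was -0.07 and 0 genes were at least 2-fold lower. On bulk RNA, fewer cells in mitosis and less of these RNAs per cell cannot be told apart.

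By role, the mitotic kinases stood lowest. All 13 kinases had a ratio under 1, with a median log2 ratio of -0.94, and 6 were at least 2-fold lower. PLK1, which drives entry into mitosis and its exit, read 2158 and 802 in SCM and 6551 and 7014 in DMEM, so that in SCM it was at 37.1% of control. The checkpoint kinase gene BUB1 read 5343 and 2271 in SCM and 9613 and 8471 in DMEM, and a second bright probe set gave 44.4% of control. AURKA, the spindle pole kinase, read 7912 and 3338 in SCM, with 40.2% of control on another probe set, while a probe set with signals near the floor had a log2 ratio of 0.28. The checkpoint kinase TTK was at 46.9% of control, NEK2 at 47.1% and PLK4, which starts centriole duplication, at 44.2%, and a dim probe set of PLK4 had a log2 ratio of 0.22. CDK1, the kinase that mitotic cyclins activate, read 10358 and 6400.1, a log2 ratio of -0.69. Each of these kinases was dimmer on the PIAS1 shRNA array in SCM by more than in DMEM.

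Among cyclins, phosphatases and genes of the anaphase-promoting complex, 3 of 18 were at least 2-fold lower, with a median of -0.45. Cyclin A2, CCNA2, read 6241 and 2374 in SCM and 22461 and 20186 in DMEM and was at 44.7% of control on its other probe set, cyclin B1, CCNB1, read 7277 and 3572 in SCM and 23286 and 21824 in DMEM, and the CDK1 phosphatase gene CDC25C read 1347 and 578 and 2136 and 2424, with 45.3% of control on another probe set and signals under the floor on the last. FOXM1 and MYBL2, the factors that switch on the program, had log2 ratios of -0.49 and -0.66. In the mitosis list 5 genes had a ratio over 1, the highest being the phosphatase gene CDC25A, with 0.36 as a bound.

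Of 27 kinesin and spindle genes 3 were at least 2-fold lower, with a median of -0.67. KIF23, a motor of the central spindle that is needed for cytokinesis, read 940.1 and 169.8 in SCM and 3693 and 3887 in DMEM, and as the PIAS1 shRNA signal is under the floor its log2 ratio of -2.37 is a bound and its rank among the lowest genes is not settled. The bipolar spindle motor KIF11 read 1829 and 888 and the spindle protein gene DLGAP5 5379 and 2196 in SCM. Of 23 kinetochore and chromosome genes 4 were at least 2-fold lower, with a median of -0.62. HJURP, the chaperone that loads the centromeric histone CENPA, read 3797 and 1368 in SCM and 6939 and 6771 in DMEM. The kinetochore genes NDC80 and CENPF were at 47.8% and 46.3% of control, and INCENP, of the Aurora B complex, read 423 and 174. A second CENPF probe set with signals of 601 and 569 had a log2 ratio of -0.08. The proliferation marker MKI67, which was not in the list, was lower on all 4 of its probe sets, at 47.2%, 51.1%, 66.6% and 43.3% of control.

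DNA replication genes were mostly a little dimmer with PIAS1 shRNA. Of 50 measured, 41 had a ratio under 1, the median was -0.24, and 2 were at least 2-fold lower (4% against 1.18% of all genes): RRM2, the regulated subunit of ribonucleotide reductase, at 5411 and 2301 in SCM, and POLD1, the catalytic subunit of polymerase delta, at 1410.0 and 681. The licensing helicase genes MCM2 and MCM5 had -0.53 and -0.78, and PCNA, the sliding clamp, -0.25. In DMEM 0 were at least 2-fold lower and the median was -0.07. Among 29 DNA repair genes the recombination genes BRCA1 (589.5 and 265) and XRCC2 (542 and 194) were at least 2-fold lower (6.90% against 1.18% of all genes). A second BRCA1 probe set was at 84.6% of control. Of 24 genes of G1 control, cyclin D2, CCND2, was higher as a bound, at 129 and 510.1 in SCM and 19.8 and 457 in DMEM. The repressor E2F8 was lower at 438 and 199, with a median of 0 over the list. Each is 4.17% of the list, against 1.71% higher and 1.18% lower of all genes. Of 15 polyadenylated or variant histone genes 1 was at least 2-fold higher (6.67% against 1.71% of all genes) and 0 lower. Of the 15, 8 had a ratio over 1, 2 under it and 5 were under the floor on both arrays, with a median of 0.19. H2AC6 was higher at 3540.3 and 7522 and the log2 ratios of H2BC5, H2BC12 and H1-2 were 0.95, 0.68 and 0.62, and over the 9 histone genes with a mean signal above the floor the median was 0.68.

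**Figure D2:**
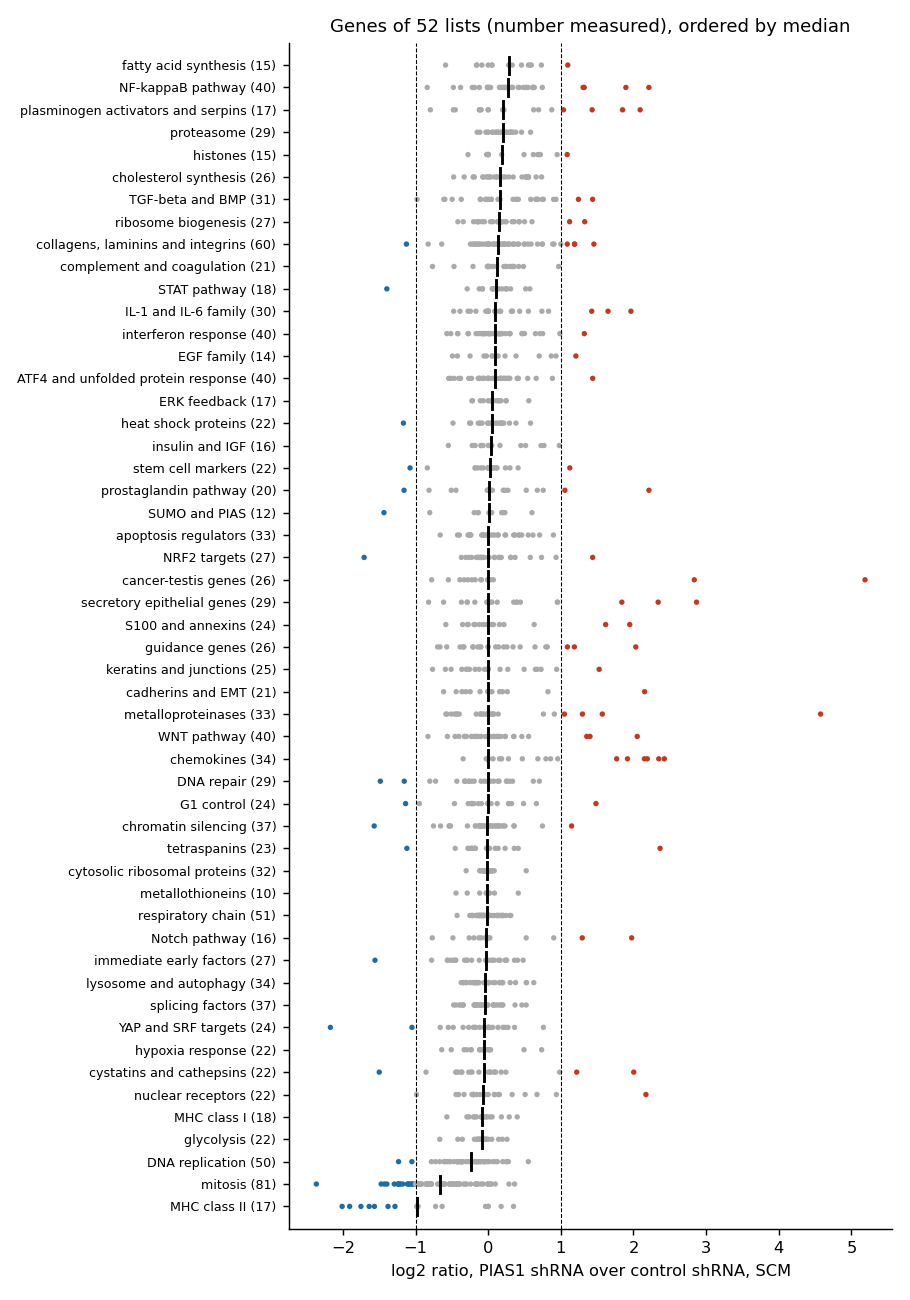
The log2 ratio of PIAS1 shRNA over control shRNA in SCM for each measured gene of 52 lists, with the number measured in brackets, a black bar at the list's median, and genes at least 2-fold higher in red and lower in blue. The medians run from -0.98 for MHC class II and -0.67 for mitosis to 0.28 for fatty acid synthesis, and all other lists but DNA replication (-0.24) lie between -0.08 and 0.27.

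Several chemokine genes were higher. Chemokines are small secreted proteins that attract leukocytes, those of the CXC group with an ELR motif mainly neutrophils, and many are switched on by NF-kappaB. The list holds ligands and their receptors. Of 34 genes measured 6 were at least 2-fold higher and 0 lower, 17.6% against 1.71% of all genes, and as 16 were under the floor on both arrays the median over the list was 0. The higher genes were 5 of the 23 ligands (21.7%) and 1 of the 11 receptors, CXCR4. The 3 ligand genes CXCL1, CXCL2 and CXCL3 share much of their sequence, so their probe sets may not be fully separate. CXCL1 read 8071 and 27496 in SCM and 11422 and 5113 in DMEM. CXCL2 read 3903 and 17807 in SCM and 4895 and 2449.6 in DMEM, and CXCL3 read 1399.8 and 7515 and 1093 and 664. All 3 were higher with PIAS1 shRNA in SCM and lower with it in DMEM. CXCL5 was at least 4.44-fold higher in SCM, with 91.1 and 538 on another probe set, and was under the floor on both DMEM arrays. CXCL8, a strong neutrophil attractant, read 42367 and 68074 on its brightest probe set in SCM, 1.61-fold, and 12722 and 45473 on its other, which is at least 2-fold, with 17906 and 8753 in DMEM on the brightest.

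CCL20, the ligand of CCR6 and an attractant of T cells and dendritic cells, read 2864 and 14579 in SCM, 5.09-fold higher, and 31.9 and 33.1 in DMEM, both under the floor. The receptor gene CXCR4 behaved otherwise: it read 567 and 2142 in SCM and 209.9 and 934 in DMEM, higher with PIAS1 shRNA in both media, and its other probe sets read 222 and 1233, and 161 and 1565, in SCM. The receptor genes CCR1 and ACKR3 read 985 and 1912 and 2153 and 2256 in SCM. CXCL10, an interferon-induced ligand, read 296 and 536.

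In the NF-kappaB pathway, 4 of 40 genes reached 2-fold upward in SCM and 0 downward, 10% against 1.71% of all genes, with a median log2 ratio of 0.27 in SCM and -0.18 in DMEM. The subunits were within 2-fold of control. RELA read 13877 and 14074, NFKB1 2212 and 3387 and RELB 2566 and 2943. The inhibitors NFKBIA and TNFAIP3, which NF-kappaB itself induces, read 19808 and 24314 and 2269.9 and 3486 in SCM and 29261 and 17639 and 2469 and 1456 in DMEM. Of 16 other target genes 15 had a ratio over 1 in SCM, with a median of 0.52. TNFAIP2 read 8786 and 21735 in SCM and 18281 and 8377 in DMEM, higher with PIAS1 shRNA in the first and lower in the second, and on a dimmer probe set it was at 150% of control in SCM. EBI3, a subunit of the cytokines IL-27 and IL-35, read 2677 and 6692 in SCM and 709.8 and 438 in DMEM. TNFAIP6, a hyaluronan-binding protein, read 225 and 835 in SCM. The adhesion gene ICAM1 read 26589 and 37939 in SCM and 7579 and 4166 in DMEM, both within 2-fold, and the protease gene PLAU was the one target with a ratio under 1, at -0.48. In DMEM, 2 of the 16 target genes were at least 2-fold lower and 0 higher, with a median of -0.23. Of all 11963 genes 78 were at least 2-fold lower in DMEM and 139 higher.

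PTGS2, which encodes the inducible prostaglandin synthase COX-2, read 2496 and 11565 in SCM, 4.63-fold higher, and was under the floor in DMEM. Its neighbour PLA2G4A, the phospholipase that releases arachidonic acid for COX-2, read 215 and 448 in SCM. The prostaglandin F receptor gene PTGFR was lower, at 549 and 246, and of the other 17 measured genes of the pathway 12 were within 2-fold and 5 were under the floor on both arrays. Thus 2 of 20 genes were higher (10%) and 1 lower (5%), against 1.71% and 1.18% of all genes. Of 30 genes of the IL-1 and IL-6 families and related cytokines, 3 were at least 2-fold higher (10% against 1.71% of all genes) and 0 lower. IL11, a cytokine of the IL-6 family, read 5931 and 15928 in SCM and 1065 and 3969.8 in DMEM and was 297% of control in SCM on its other probe set. CSF3, which encodes G-CSF, read 4421 and 13873 in SCM and was under the floor in DMEM. TNFSF15 read 432 and 1685 in SCM. IL1B and IL6 were among the brightest of the list, and read 27266 and 48491 and 49922 and 62966 in SCM, within 2-fold. The pentraxin gene PTX3, which was in no list, read 4846 and 15446 in SCM and 6255 and 8006 in DMEM. Of 8 macrophage markers 2 were above the floor in SCM, CD14 at 1172 and 961 and CSF1R at 2537 and 1898. The summed signals of the 8 markers, 4309 and 3355, rest mostly on these.

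**Figure D3:**
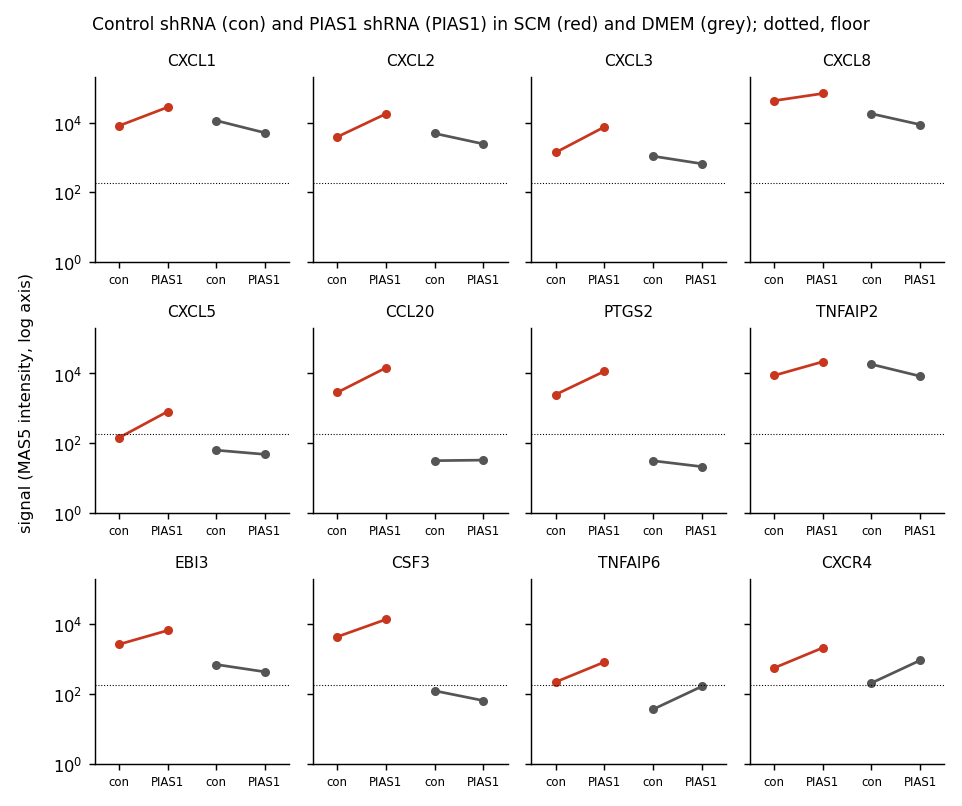
Signals (MAS5 intensity, log axis) of 12 genes of the chemokine, NF-kappaB and cytokine lists on the 4 arrays, 1 array per point, with SCM in red, DMEM in grey and the floor of 182 dotted; lines join control shRNA (con) to PIAS1 shRNA (PIAS1). All 12 were higher with PIAS1 shRNA in SCM, while CXCL1, CXCL2, CXCL3, CXCL8, TNFAIP2 and EBI3 were lower with it in DMEM and CXCR4 was higher in both.

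Since these chemokine genes were higher together, the 250 bases before their start sites were read from RefSeq (GRCh38.p14) and searched on both strands for the NF-kappaB consensus. Capitals mark it in the promoters of 4 ligand genes from that group, each above background with control shRNA.
CXCL1 (chr4:73869143-73869392, plus strand): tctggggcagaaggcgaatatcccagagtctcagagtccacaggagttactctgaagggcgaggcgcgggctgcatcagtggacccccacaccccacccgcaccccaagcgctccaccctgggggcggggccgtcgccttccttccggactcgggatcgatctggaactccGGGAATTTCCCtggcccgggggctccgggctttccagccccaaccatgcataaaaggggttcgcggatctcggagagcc
CXCL2 (chr4:74099196-74099445, minus strand): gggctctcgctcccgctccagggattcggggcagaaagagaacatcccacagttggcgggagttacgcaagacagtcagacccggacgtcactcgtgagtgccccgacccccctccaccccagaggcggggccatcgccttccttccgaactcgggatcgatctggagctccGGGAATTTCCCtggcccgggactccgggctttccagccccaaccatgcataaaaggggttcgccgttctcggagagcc
CXCL3 (chr4:74038690-74038939, minus strand): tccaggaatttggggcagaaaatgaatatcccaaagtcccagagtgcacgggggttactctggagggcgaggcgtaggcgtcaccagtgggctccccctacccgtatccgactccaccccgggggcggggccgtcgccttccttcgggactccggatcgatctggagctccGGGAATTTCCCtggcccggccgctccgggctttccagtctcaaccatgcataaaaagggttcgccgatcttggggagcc
CCL20 (chr2:227813592-227813841, plus strand): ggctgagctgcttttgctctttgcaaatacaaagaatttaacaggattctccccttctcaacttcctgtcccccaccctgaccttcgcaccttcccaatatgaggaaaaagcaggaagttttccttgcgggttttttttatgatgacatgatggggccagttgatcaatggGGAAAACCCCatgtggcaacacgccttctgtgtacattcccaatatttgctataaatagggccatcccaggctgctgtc
In CXCL1, CXCL2 and CXCL3 the match lies at positions -79, -78 and -79 from the start site within the same capitals on both strands, and in CCL20 it lies at -79 on the other strand. All 5 ligand genes at least 2-fold higher had a match, as had 9 of the 17 ligand genes with a promoter (52.9%), while of the 8 receptor genes with a promoter, CXCR4 among them, 0 had one. Of all 9562 genes measured here with a promoter, 5.88% had one, and of the 157 higher genes with a promoter 12.1%. In the NF-kappaB list 9 of 34 had a match (26.5%), but 0 of its 4 higher genes. A match is a run of letters and no measure of binding.

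The same was done for mitosis genes, with the letters TTTGAA of the CHR element and the letters CCAAT, to which the factor NF-Y binds. Capitals mark both in 3 genes that were at least 2-fold lower.
PLK1 (chr16:23678639-23678888, plus strand): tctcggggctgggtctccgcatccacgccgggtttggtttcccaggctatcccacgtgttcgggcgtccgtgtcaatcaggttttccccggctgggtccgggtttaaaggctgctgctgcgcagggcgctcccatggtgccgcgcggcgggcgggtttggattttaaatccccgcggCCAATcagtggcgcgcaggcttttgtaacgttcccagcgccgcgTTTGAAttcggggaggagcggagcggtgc
KIF23 (chr15:69414099-69414348, plus strand): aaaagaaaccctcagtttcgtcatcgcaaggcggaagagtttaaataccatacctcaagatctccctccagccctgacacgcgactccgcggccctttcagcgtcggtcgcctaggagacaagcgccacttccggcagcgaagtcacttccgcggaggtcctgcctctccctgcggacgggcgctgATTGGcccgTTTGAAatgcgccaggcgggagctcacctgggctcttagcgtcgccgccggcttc
CCNA2 (chr4:121823884-121824133, minus strand): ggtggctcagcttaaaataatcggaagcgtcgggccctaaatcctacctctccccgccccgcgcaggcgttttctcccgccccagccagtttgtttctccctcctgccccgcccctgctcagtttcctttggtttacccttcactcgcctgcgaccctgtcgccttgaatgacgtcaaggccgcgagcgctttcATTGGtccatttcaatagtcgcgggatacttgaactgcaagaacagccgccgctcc
The CHR letters were in 32 of 67 mitosis promoters (47.8%) against 9.73% of all measured genes, and the CCAAT letters in 49 of 67 (73.1%) against 35.6%. Of the 14 genes with a promoter that were at least 2-fold lower, 6 held the CHR letters and 11 the CCAAT letters. In CCNA2 only the CCAAT letters were in the window.

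**Figure D4:**
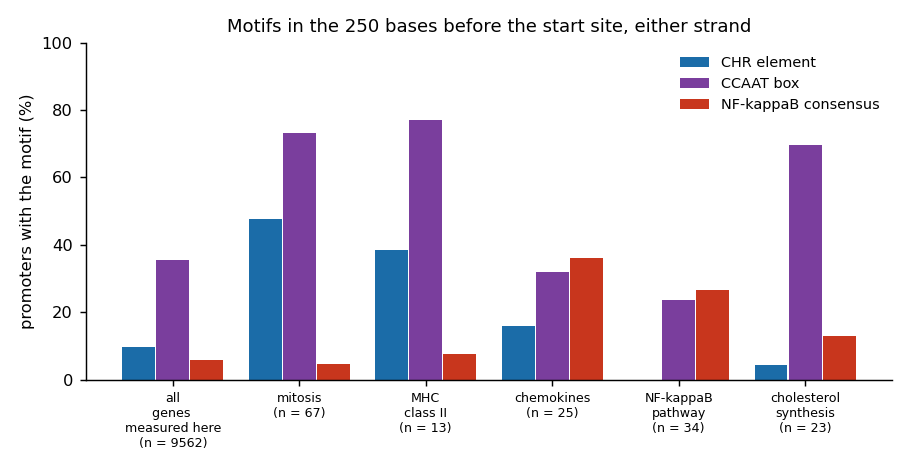
The share of promoters (%), each the 250 bases before the start site read on both strands, that hold the CHR letters (blue), the CCAAT letters (purple) or the NF-kappaB consensus (red), for all measured genes and 5 lists. The CHR letters were in 47.8% of mitosis promoters and 9.73% of all, the NF-kappaB consensus in 36% of the promoters of chemokines and their receptors and 5.88% of all, and the CCAAT letters in over 60% for mitosis, class II and cholesterol genes alike.

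Class II antigen-presentation genes had the lowest median of the 52 lists. MHC class II molecules show peptides to helper T cells and are usually confined to immune cells, but interferon and some tumor cells switch them on through the coactivator CIITA, which joins RFX factors and NF-Y on their promoters. All 7 chains measured had a ratio under 1 and 5 of them were at least 2-fold lower, and with CIITA and HLA-DOA this makes 7 of 17 genes of the list lower (41.2% against 1.18%) and 0 higher. HLA-DRB1 read 64984 and 19305 in SCM and 18152 and 8743 in DMEM. HLA-DPB1 read 17720.0 and 6817 in SCM and 5569.9 and 2407 in DMEM. HLA-DQB1 read 3184 and 791 in SCM and 711 and 285 in DMEM, and its 3 other bright probe sets gave 27.2%, 30.6% and 16.6% of control in SCM, while a probe set with signals of 136 and 206 gave a log2 ratio of 0.17. HLA-DQA1 was at 26.7% and HLA-DRB4 at 32.1% of control in SCM, and HLA-DRA, the partner of the DR beta chains, at 50.7%. The class II genes are close relatives of each other and differ between cell lines, so probe sets may read more than 1 of them.

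CIITA was dim, with 613 and 207 in SCM and 297 and 177 in DMEM on 1 probe set and both SCM signals under the floor on its other 2. The RFX genes RFX5 and RFXANK were not lower in step, with -0.04 and 0.35. The peptide-loading genes HLA-DMA and HLA-DMB had -0.98 and -0.96 and the invariant chain gene CD74 -0.63. In DMEM 7 of the 17 genes of the list were at least 2-fold lower, against 78 of all 11963 genes. The list's median was -0.72 there and -0.98 in SCM. Those 7 genes hold 5 of the 7 that were lower in SCM, while CIITA and HLA-DQA1 had -0.70 and -0.72 in DMEM, as bounds. Of 18 genes of the class I pathway 0 were 2-fold either way, with a median of -0.08. The CCAAT letters were in the promoters of 10 of 13 class II genes (76.9% against 35.6% of all), among them all 5 lower genes with a promoter, a scan that was added after the values were seen. The share was 73.1% for mitosis and 69.6% for cholesterol synthesis, and the CHR letters were in 5 of the 13 (38.5%) and in 3 of the 5. The promoter of HLA-DQB1 is shown with the CCAAT letters of either strand in capitals, and the CHR letters that it also holds are not marked.
HLA-DQB1 (chr6:32666658-32666907, minus strand): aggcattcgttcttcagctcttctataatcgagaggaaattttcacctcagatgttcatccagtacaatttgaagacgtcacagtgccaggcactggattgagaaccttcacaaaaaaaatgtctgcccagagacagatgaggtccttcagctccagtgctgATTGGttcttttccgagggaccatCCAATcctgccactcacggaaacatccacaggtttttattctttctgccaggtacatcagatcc

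**Figure D5:**
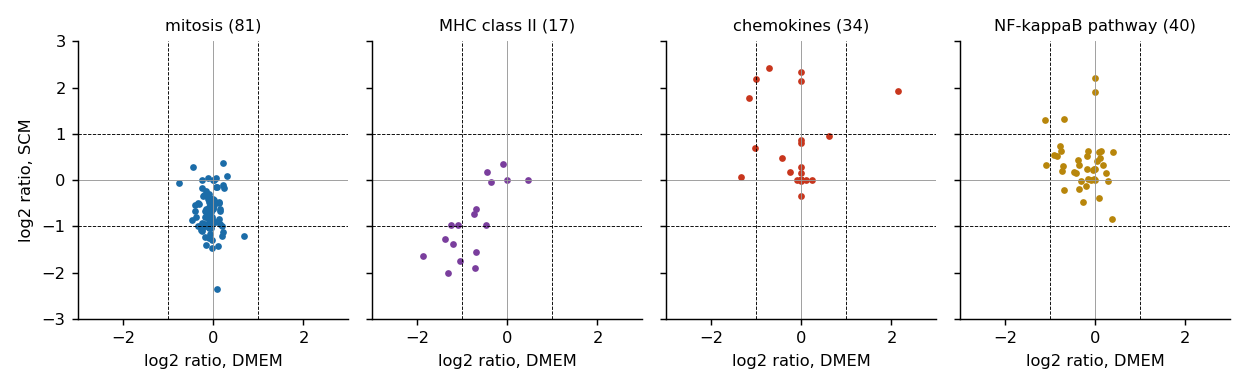
Log2 ratios of PIAS1 shRNA over control shRNA, that in DMEM on the x axis against that in SCM on the y axis, for each measured gene of 4 lists, from 2 pairs of arrays that share none; dashed lines mark 2-fold. Mitosis genes lie below 0 in SCM and near 0 in DMEM (medians -0.67 and -0.07), class II genes below 0 in both (-0.98 and -0.72), and the NF-kappaB genes above 0 in SCM and below in DMEM (0.27 and -0.18).

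Interferon response genes were mostly within 2-fold. Of 40 measured, the antiviral gene RSAD2 was at least 2-fold higher, at 181 and 457 against a control signal under the floor, and the median was 0.10. Of 18 genes of the STAT pathway JAK3 was lower, at 584 and 222, with 0 higher and a median of 0.11.

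Among proteases and their inhibitors, single members were higher while the medians of the 3 lists lay between -0.06 and 0.20. Of 33 metalloproteinase genes and their inhibitors 4 were at least 2-fold higher and 0 lower (12.1% against 1.71% of all genes), and 13 had a ratio over 1 and 13 under it. Beside MMP1 the higher genes were its neighbour MMP10, a stromelysin, at 110.3 and 449, the membrane-bound MMP16 at 123 and 378, and PAPPA, which cleaves IGF binding proteins, at 467 and 1386 with 294% of control on its other probe set. MMP10 and MMP16 are bounds on dim signals. Of 17 plasminogen activator and serpin genes 4 were higher (23.5%) and 0 lower, with a median of 0.20. SERPINE2, an inhibitor of thrombin and urokinase, read 3360.4 and 12109 in SCM and 1536 and 2434 in DMEM. The neighbouring serpins SERPINB3, SERPINB4 and SERPINB7 read 663 and 1359.6, 411 and 1752 and 49.9 and 492 in SCM, of which the first 2 are near-identical genes. The salivary-type cystatins CST1 and CST4, inhibitors of cysteine proteases, were higher in both media, with 6890.1 and 27623 in SCM and 424 and 2073 in DMEM for CST1. CST7, the leukocyte cystatin, was lower in both, with 11214 and 3967 and 6649.9 and 2424, so that 2 of the 9 cystatins were higher and 1 was lower. Of the 13 cathepsins, proteases of the lysosome, 0 were 2-fold and 8 had a ratio under 1, with a median of -0.22. SLPI, an inhibitor of neutrophil elastase, read 226 and 809.8 in SCM.

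Of 60 collagen, laminin, integrin and other matrix genes 4 were higher and 1 lower in SCM, 6.67% and 1.67% against 1.71% and 1.18% of all genes. The anchoring fibril collagen COL7A1 read 1911 and 4361, COL15A1 643 and 1464 and tenascin C, TNC, 669 and 1423, while SPARC (168 and 500.2) was higher and BGN (398 and 71.0) lower only as bounds on dim signals. The list's median was 0.14 in SCM and 0.22 in DMEM. GJA1, which encodes connexin 43, read 1987 and 5726 and was the only higher gene of 25 keratin and junction genes. FERMT1, which encodes the integrin activator kindlin-1 and was in no list, read 1244 and 4456 in SCM and was 478% of control on its other probe set.

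Lists of signals between cells each had a few genes at 2-fold, to be read against the 1.71% of all genes that were higher and the 1.18% that were lower. Of 40 WNT genes 3 were higher (7.5%) and 0 lower, with a median of 0, namely the ligand WNT5A, at 20.2 and 756 in SCM and 53.7 and 359 in DMEM, its receptor ROR1, at 421 and 1079 and 2180.0 and 3679, and the transcription factor LEF1, at 57.5 and 482. A second ROR1 probe set with signals of 381 and 353 in SCM had a log2 ratio of -0.11. The Notch target genes HES1 and HEY1 read 1838 and 4509.7 and 489 and 1922 in SCM and 1014 and 1689 and 209.7 and 384 in DMEM, as 2 higher genes of 16 (12.5%), with a median of -0.02 over the list. On its other probe sets HES1 was at 153% of control and under the floor, and HEY1 read 48.5 and 1009 in SCM. The TGF-beta ligand TGFB3 and BMP2 were higher, at 449.9 and 1218 and 274 and 647, as 2 of 31 (6.45%), and the activin subunit INHBA read 15735 and 25254. Of 14 EGF family genes the ligand NRG1 was higher (7.14%), at 1159.9 and 2678, with 121 and 498 and 158 and 207 on dim probe sets and both SCM signals under the floor on the other 3. The guidance ligands SLIT2 and SEMA3A read 3334 and 7097 and 462 and 1050.5 in SCM and 2275 and 4923 and 351 and 687 in DMEM, and the Slit receptor ROBO1 187 and 765 in SCM and 506 and 359 in DMEM, as 3 of 26 (11.5%). Of 24 YAP and SRF targets CCN1 (11681 and 5647) and CCN2 were lower (8.33%) and 0 higher. FOSL2, an AP-1 subunit, was the single gene of 27 immediate early factors that was at least 2-fold, lower at 10863 and 3690.2, with 48.7% and 58.6% of control on its other probe sets. The ERK feedback list and the insulin and IGF list had 0 genes at 2-fold, with medians of 0.06 and 0.03.

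Of 22 breast stem cell markers and aldehyde dehydrogenases, 1 was higher and 1 lower, 4.55% each against 1.71% and 1.18% of all genes. ALDH1A3, the retinaldehyde dehydrogenase behind much of the ALDEFLUOR activity of breast cancer cells, read 6219.8 and 13547 in SCM and 1364 and 1195 in DMEM. ALDH3B1 read 4281 and 2032 in SCM. CD44 read 55568 and 60016, CD24 7361 and 9792 and ITGA6 12619 and 11169.5, all within 1.5-fold, and PROM1, ALDH1A1 and NANOG were under the floor on both SCM arrays. S100P read 803 and 3098 and the annexin gene ANXA10 558 and 1710.3 in SCM, TSPAN15 was lower at 1201 and 553, and in DMEM S100P was at 262 and 63.1 and ANXA10 at 338 and 1614.

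Metabolic and housekeeping lists had few genes at 2-fold, with some medians above 0 and others near it. The list of fatty acid synthesis had the highest median of the 52 with the floor used here, and it fell to 0.05 with the floor at the median signal. Of 15 fatty acid synthesis genes the desaturase FADS2 was higher, at 2997 and 6403, and fatty acid synthase, FASN, read 6567 and 10911, with a median of 0.28 in SCM and -0.04 in DMEM. The 16 cholesterol synthesis enzymes had a median of 0.35, 12 of them over 1 and 0 at 2-fold, with LSS and HMGCS1 at 0.74 and 0.56. The 10 genes of cholesterol uptake and control had a median of 0.06, and the whole list of 26 had 0.16. The sterol regulatory element letters TCACNCCAC were in 1 of 23 promoters of the whole list and in 0.816% of all. The proteasome list had 25 of 29 genes over 1 and a median of 0.20, with PSMC4 highest at 0.58. The cystine carrier gene SLC7A11 read 848 and 2299 and was at 169% and 146% of control on its other probe sets, RRS1 and RRN3, of ribosome biogenesis, read 679.9 and 1708 and 521 and 1132, and the heat shock gene HSPA2 was lower at 409 and 147. The respiratory chain (51 genes, median -0.02), cytosolic ribosomal proteins (32, -0.01), splicing factors (37, -0.04), glycolysis (22, -0.08), hypoxia response (22, -0.06), lysosome and autophagy (34, -0.04), apoptosis regulators (33, 0), metallothioneins (10, -0.02) and complement and coagulation genes (21, 0.12) had 0 listed genes at 2-fold. Related genes outside these lists, named after their values were seen, did reach 2-fold in SCM. The complement gene C2 read 3076 and 1470 and the coagulation gene F7 530 and 181, as a bound. The coagulation serpin gene SERPIND1 read 262 and 905 and the splicing gene SNRPF 3703 and 8260. Of 37 chromatin silencing genes DNMT3A (152 and 404) was higher and HDAC7 (541 and 52.2) lower, both as bounds, and the median was -0.01.

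The 52 lists hold 59 of the 204 higher and 41 of the 141 lower genes. Outside them, 33 of the higher and 20 of the lower genes had both SCM signals above the median of 605, and those named here were chosen after their values were seen. The polyamine enzyme ODC1 read 4351 and 10550.2 in SCM and 19154 and 26331 in DMEM, the serum and glucocorticoid kinase SGK1 4575 and 11045 and 2901 and 6346, the G protein regulator RGS2 806 and 2987 and 255 and 624, and the endothelial lipase gene LIPG 2426 and 7450.5 and 922 and 1745. The transcription factor SOX4 was higher in SCM on all 5 of its probe sets, from 208% to 412% of control by the deposited signals, and read 2904 and 2593 in DMEM on its brightest. Among the lower genes the amyloid precursor gene APP read 22376 and 9178 in SCM, with 83.7% and 43.0% of control on its other probe sets, and the nuclear lamina gene LMNB1 2036 and 898.

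Several of the higher genes are neighbours on the chromosome. When protein-coding genes measured here were set in order by RefSeq (GRCh38.p14), 26 of the 200 higher genes (13%) were next to another higher gene, where 3.39% of all these genes were next to a higher gene, and 9 of the 136 lower genes (6.62%) were next to another lower gene, against 2.32% of all. They formed 12 and 4 runs. Families of related genes made up part of these runs, namely CXCL5, CXCL3 and CXCL2 on chromosome 4, SERPINB4, SERPINB3 and SERPINB7 on chromosome 18, CST4 and CST1 on chromosome 20, MMP10 and MMP1 on chromosome 11, and HLA-DRB1, HLA-DQA1 and HLA-DQB1 on chromosome 6 among the lower genes. Other runs join genes of no common family: PTGS2 and PLA2G4A, CCL20 and PID1, TNC and PAPPA, FERMT1 and BMP2, CCND2 and TIGAR, SPANXB1 and LDOC1, MAN1A1 and GJA1, and NR2F1 and MCTP1. Over whole chromosomes the median log2 ratio lay between -0.08 and 0.08.

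Most of the higher and lower genes of SCM were not at least 2-fold in DMEM. Of the 204 higher genes 31 were at least 2-fold higher in DMEM as well, where 139 of all 11963 genes were, and 5 were at least 2-fold lower. Within 1.5-fold were 100, and 28 were under the floor on both DMEM arrays and cannot be read there. The median log2 ratio of the 204 in DMEM was 0.22. Of the 141 lower genes 14 were at least 2-fold lower in DMEM, where 78 of all genes were, and 3 were at least 2-fold higher. Within 1.5-fold were 91, and 12 were under the floor on both DMEM arrays, with a median of -0.07 over the 141. The genes within 1.5-fold include some under the floor on 1 DMEM array, whose ratio is a bound, so their change may be larger. MAN1A1, for example, read 24.6 and 213 in DMEM. The genes that moved the same way in both media include SPANXB1, LDOC1, AGR2, TSPAN8, CDH11, CXCR4, IL11, CST1, ANXA10 and SLIT2 on the higher side and PIAS1, RARRES2, CST7, HLA-DRB1, HLA-DRB4, HLA-DPB1 and HLA-DQB1 on the lower side. Whether the media differ was not tested, as each medium has 1 array per side.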

How the data were processed

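RNA of 4 MDA-MB231 samples, control shRNA or PIAS1 shRNA in SCM or in DMEM with 10% FBS for 30 h, was measured on 1 Affymetrix human array each, and the labels gave the groups. The authors deposited signal intensities on a linear scale, for which the submitters' processing notes name MAS5; no source used here gives its version or settings. The number of arrays limits the precision.

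Gene names came from the platform's annotation, which lists 19070 probe sets with 1 gene, 1043 with several and 2164 with none; probe sets of the latter kinds were left out. The Entrez identifiers of 19058 matched RefSeq (GRCh38.p14) and updated 0 symbols. For a gene with several probe sets the one with the highest log2 signal, averaged over the 4 arrays, was taken. Signals were raised to a floor of 182, the highest over the arrays of the 75th percentile of 93 probe sets that read 63 genes specific to other tissues, and log2 ratios were taken with no further scaling. A gene was counted from 2-fold. No test was run, as each side has 1 array. The steps were tested on simulated data. The software was Python 3.11.15 with pandas 2.3.3, NumPy 2.4.6, matplotlib 3.10.9 and SciPy 1.17.1.

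The comparison, the lists (1424 of 1616 genes measured) and the rules were chosen with earlier results of these data known. A further list is not reported here. Named were the 15 highest and 15 lowest ratios, list members from 2-fold, up to 6 further members of a described list, PIAS1 and cell markers, and the promoters of 8 such genes. Further genes, among them MKI67, PTX3, FERMT1, TIGAR, MAN1A1, MCTP1, SOX4, ODC1, SGK1, RGS2, LIPG, APP, LMNB1 and those at least 2-fold in opposite directions in SCM and DMEM, were chosen after their values were seen. The CCAAT search of class II promoters and the search for neighbouring genes were added after the values were seen. Alternatives were no floor, 2 higher floors, quantile normalization, median scaling, other choices among a gene's probe sets, a filter on the mean signal and, for counts, 1.5-fold.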

Additional observations from a re-analysis of the deposited data

Results flagged for a closer look

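For 8 genes, knockdown went with a ratio of at least 2-fold in SCM and at least 2-fold the other way in DMEM, and this difference was not tested. It is given here as the log2 ratio of SCM less the log2 ratio of DMEM. CXCL1, the neutrophil chemokine, had 2.93, from 1.77 in SCM and -1.16 in DMEM. TNFAIP2, a TNF-induced gene, had 2.43, from 1.31 and -1.13. C17orf75 had 2.86, from 1.33 and -1.53, SLC37A1, a sugar phosphate carrier gene, 2.80, from 1.27 and -1.52, and FGD1, an exchange factor for CDC42, 2.26, from 1.10 and -1.16. The other way, ASRGL1, an asparaginase gene, had -2.81 and MAGOH2P -2.06, each with bounds in both media, and DYNC2H1, the dynein of cilia, had -2.07, from -1.02 and 1.04. Of these, CXCL1, TNFAIP2 and FGD1 had all 4 signals above the median of 605.

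Outside the genes described, 3151 probe sets without exactly 1 gene, the array's control probe sets left out, gave 41 that were at least 2-fold higher and 29 that were at least 2-fold lower with PIAS1 shRNA in SCM; they are unnamed here, and there was no replicate to set their spread.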

How the results depend on the processing

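The counts at 2-fold depended on how low signals were treated. Without a floor 1012 genes were higher and 1021 lower, against 204 and 141. With a floor of 373, the 95th percentile for genes specific to other tissues, they were 120 and 65, and with the floor at the median signal (605) 81 and 47. At 1.5-fold they were 687 and 648. Quantile normalization, common median scaling, other choices among a gene's probe sets and a filter on the mean signal kept both counts within 1.5 times. Of 52 list medians, 50 moved by less than 0.25 under every alternative run. Most of the medians were themselves smaller than that, so this limit cannot show that they hold. The median of fatty acid synthesis, 0.28, fell to 0.05 with the floor at 605 and to 0.05 on probe sets without an _x_at or _s_at name. That of histones moved to 0.62 without a floor and 0.68 with the filter on the mean signal, and that of chemokines to 0.45 and 0.96, as the filter leaves out dim genes. Of the 110 genes named by the rule, 110 kept at least 2-fold the same way without a floor, with median scaling and with quantile normalization. Without a floor this could not come out otherwise, as raising a signal to the floor can only shrink a ratio. Median scaling hardly changed the signals, as the median was 605 on both SCM arrays. At least 2-fold was kept by 87 with the mean over probe sets, 86 with the floor at 373 and 71 with the floor at 605. On probe sets without an _x_at or _s_at name, 69 of 83 did, and 3 turned their sign: AURKA to 0.28, HLA-DQB1 to 0.17 and ROR1 to -0.11, on other and dimmer probe sets. No paired analysis was possible because the comparison within SCM is of 1 array with 1 array, and a fit over both media would be another comparison. Genes under the floor, 2639 on both SCM arrays, cannot be read for a change.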

Other observations

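TIGAR, a fructose bisphosphatase gene next to CCND2, was dim on 1 of the 4 arrays. It read 200.3 with control shRNA and 831 with PIAS1 shRNA in SCM and 1832 and 2011 in DMEM.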
